A study of Mus musculus with 14 samples.

Results

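The genes described here are 6 imprinted transcripts of 3 mouse loci: Grb10, Igf2r with its antisense RNA Airn and its neighbour Slc22a3, and Gnas with its antisense RNA Nespas. They were chosen because they lie at the Grb10-DMR, the Igf2r-DMR and the Nespas-DMR and Gnas-DMR, differentially methylated regions that are deleted in the KO7 genotype of this study, and all 6 of 6 are present among the 23375 genes of the expression table. Poly(A) RNA of mouse brain was sequenced in 14 libraries, 2 for each of 7 groups. At E19.5, an embryonic stage just before birth, the groups are wild type, KO2 (deletion of H19-DMR and IG-DMR) and KO7 (deletion of Grb10-DMR, Igf2r-DMR, Nespas-DMR and Gnas-DMR at these loci and of Peg3-DMR, Kcnq1-DMR and Snrpn-DMR elsewhere). In adults they are KO2 with the first wild-type set (set 1) and KO3 (deletion of H19-DMR, IG-DMR and Rasgrf1-DMR) with the second (set 2). The knockout animals were made with haploid embryonic stem cells that carry the deletions. The labels do not say so, but the study is known to have given KO2 and KO3 only maternal and KO7 only paternal genomes, so these are not plain deletions in an otherwise wild-type animal. KO7 was measured at E19.5 only, and the deletions at the loci described here are carried by KO7 alone. The labels name neither the number of clones behind a genotype nor separate animals for the 2 libraries of a group, so p-values measure the spread between libraries, which may be technical.

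An imprinted gene is read mainly from the copy inherited from 1 parent, and a DMR, methylated on 1 parental copy only, sets which copy is read. Grb10 encodes an adaptor that binds activated insulin and IGF receptors and dampens their signal; it is read from the maternal copy in most tissues and from the paternal copy, through other promoters, in neurons. Igf2r encodes the receptor that carries IGF2 and mannose 6-phosphate-tagged enzymes to the lysosome. The paternal copy of the locus makes Airn, a long RNA that starts inside Igf2r, runs against it and silences it outside neurons. Slc22a3, a transporter of organic cations and monoamines, is imprinted by Airn in placenta. Gnas encodes the stimulatory G protein subunit that couples receptors to adenylyl cyclase, and its locus makes further maternal and paternal transcripts from upstream promoters, with Nespas as the paternal antisense RNA.

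The promoters of these genes differ in how many CpG dinucleotides, the sites of DNA methylation, they hold, and 6 of them are printed because the deletions of KO7 concern methylated regions at these loci. RefSeq gives 9 start sites for 5 of the 6 genes on GRCm38.p6. The expression table rests on mm9, so these coordinates are not those of the table. Each run below is the 250 bases before a start, read 5′ to 3′ on the gene's strand, with CpG dinucleotides in capitals.
Grb10 upstream start (chr11:12037421-12037670, minus strand): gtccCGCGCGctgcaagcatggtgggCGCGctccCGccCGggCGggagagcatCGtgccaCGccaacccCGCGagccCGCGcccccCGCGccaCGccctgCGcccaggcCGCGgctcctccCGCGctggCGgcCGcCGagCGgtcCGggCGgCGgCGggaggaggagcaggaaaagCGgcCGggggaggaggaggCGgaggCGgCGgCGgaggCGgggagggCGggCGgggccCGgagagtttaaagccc
Grb10 downstream start (chr11:12027972-12028221, minus strand): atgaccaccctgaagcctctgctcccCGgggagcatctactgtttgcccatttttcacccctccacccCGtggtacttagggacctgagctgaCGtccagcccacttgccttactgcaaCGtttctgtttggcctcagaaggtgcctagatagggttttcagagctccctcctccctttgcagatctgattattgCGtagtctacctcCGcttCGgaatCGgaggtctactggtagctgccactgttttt
Igf2r (chr17:12769707-12769956, minus strand): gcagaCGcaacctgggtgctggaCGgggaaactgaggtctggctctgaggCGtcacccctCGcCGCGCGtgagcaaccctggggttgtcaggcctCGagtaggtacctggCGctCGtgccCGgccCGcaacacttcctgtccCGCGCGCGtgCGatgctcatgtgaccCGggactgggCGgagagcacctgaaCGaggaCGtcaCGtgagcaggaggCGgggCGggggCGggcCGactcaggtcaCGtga
Airn (chr17:12741061-12741310, plus strand): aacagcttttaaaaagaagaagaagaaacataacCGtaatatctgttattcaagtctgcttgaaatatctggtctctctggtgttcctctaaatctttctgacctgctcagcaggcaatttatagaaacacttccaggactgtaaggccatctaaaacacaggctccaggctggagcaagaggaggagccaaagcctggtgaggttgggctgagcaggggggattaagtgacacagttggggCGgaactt
Gnas most upstream start (chr2:174284070-174284319, plus strand): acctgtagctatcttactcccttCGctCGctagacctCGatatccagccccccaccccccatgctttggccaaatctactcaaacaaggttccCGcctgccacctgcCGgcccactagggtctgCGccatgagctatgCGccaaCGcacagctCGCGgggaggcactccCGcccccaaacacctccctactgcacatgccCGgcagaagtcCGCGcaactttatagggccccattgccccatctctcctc
Gnas most downstream start (chr2:174329756-174330005, plus strand): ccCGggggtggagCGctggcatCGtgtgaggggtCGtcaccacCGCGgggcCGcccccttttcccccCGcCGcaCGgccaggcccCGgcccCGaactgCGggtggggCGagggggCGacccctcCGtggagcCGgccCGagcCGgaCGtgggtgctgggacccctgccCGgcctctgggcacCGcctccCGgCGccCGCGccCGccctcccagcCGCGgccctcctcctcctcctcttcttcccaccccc
The upstream Grb10 promoter holds 40 CpG dinucleotides, more than 98.7% of the 32851 mouse windows of this length, whose median is 6. Its second start holds 8. The Igf2r promoter holds 27 and the last Gnas promoter 29, against 14 at the first Gnas start. The window before the RefSeq start of Airn holds 2, fewer than most windows. It need not cover the promoter that Airn uses, which was not examined. Slc22a3 (chr17:12507705-12507954, minus strand) holds 5. The letters TGCCGC, known as the core recognised by the imprint-keeping factor ZFP57 on methylated DNA, were searched on both strands: 8.7% of all windows hold them and 0 of the 9 windows of these genes do. The windows were chosen by start site and not by DMR. Which of them lie within a DMR was not determined, and methylation was not analysed here.

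Values are FPKM, fragments scaled to transcript length and library size, and carry no read totals, so the depth is unknown. Between 12701 and 13398 genes per library reached 1 FPKM, and Pearson's r between the libraries of a group was 0.964 to 0.983 across genes. The summed level of 8 neuron markers was at least 1921 FPKM in every library, in keeping with tissue labelled brain. The 4 libraries of adult KO3 and set 2 were handled differently before deposit: 9994 genes are listed at 0 in all of them, 6396 of which are above 0 elsewhere, and Slc22a3 and Nespas are among these. A 0 in those libraries can be a removed low value. The KO7 libraries held Y-linked transcripts (Eif2s3y at 23.8 ± 1.73 FPKM, SD, n = 2) that were at 0 in E19.5 wild type, and Xist was at 0.0281 FPKM in KO7 against 112 in wild type. In E19.5 KO2 Eif2s3y was at 0.0137 FPKM on average, and Xist was at 1.498 and 84.0 in its 2 libraries. Whatever differs between KO7 and wild type, or between KO7 and KO2, therefore differs along with the Y-linked genes, and genotype cannot be told apart from sex here. The libraries that stood apart from the rest were set 2 replicate 2, adult KO3 replicate 2 and E19.5 KO2 replicate 1.

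The 6 genes span a wide range of levels per transcript length. Gnas was at 768 to 1259 FPKM in the 14 libraries, above 99.7% of tested genes by its mean. Grb10 was at 9.24 to 29.9 FPKM, Igf2r at 3.06 to 11.9 and Airn at 1.68 to 9.62. Slc22a3 did not exceed 1.66 FPKM and Nespas did not exceed 0.706. Genes were tested where at least 2 libraries reached 1 FPKM, which 14322 genes did, and Nespas was the 1 of the 6 that did not.

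**Figure D1:**
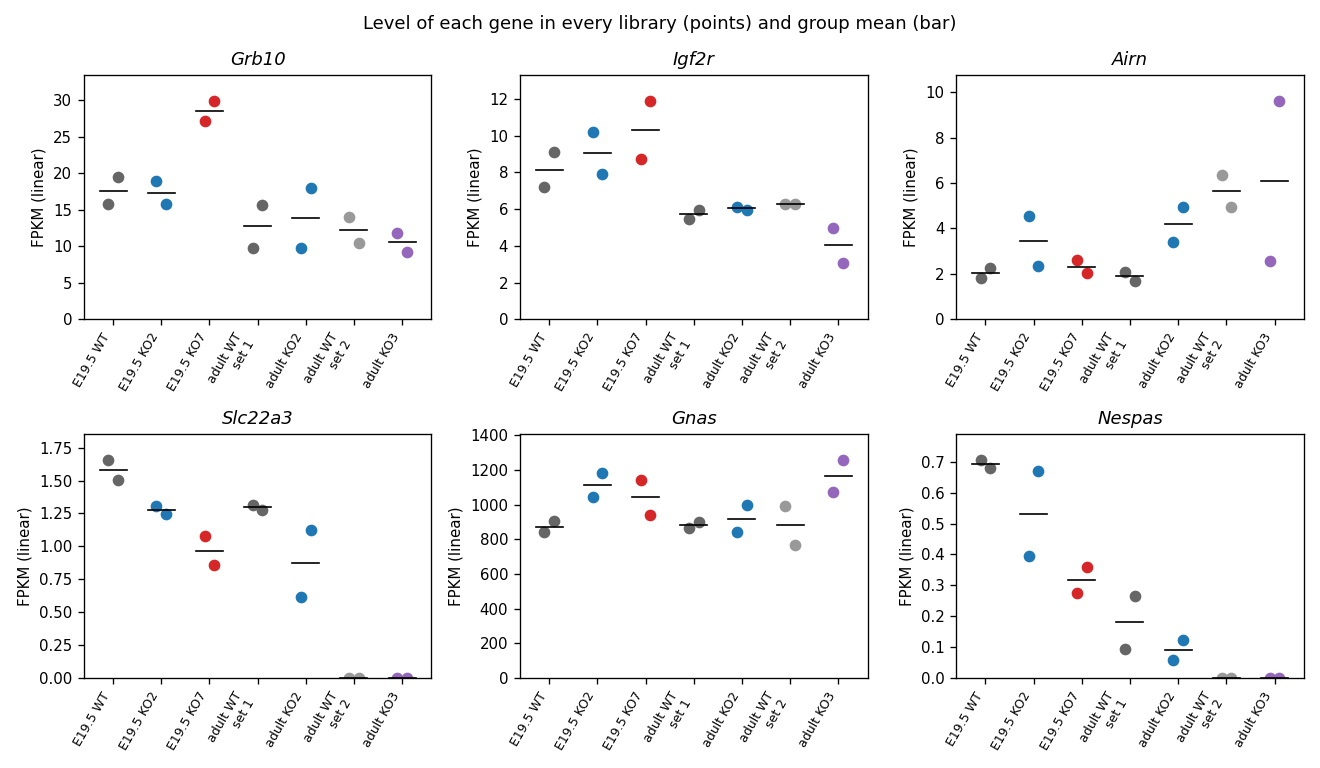
FPKM of each of the 6 genes in each of the 14 libraries, 1 panel per gene, with points for libraries and bars for group means (n = 2). The Grb10 points of E19.5 KO7 sit at 27.1 and 29.9 FPKM, above every other library. For Gnas, each group overlaps the next when ordered by mean, but not always the group drawn beside it.

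In the KO7 brain Grb10 had its highest level of the series, but the difference from wild type did not pass the test across all genes. Grb10 was at 27.1 and 29.9 FPKM in KO7, at 15.7 and 19.51 in E19.5 wild type, and at 18.9 and 15.8 in E19.5 KO2. Both KO7 libraries lay above all 12 others, and the KO2 and wild-type values overlapped. Against wild type the KO7 difference was 0.67 on the log2(FPKM + 1) scale (95% interval 0.07 to 1.27; limma adjusted p = 0.191), with a ratio of means of 1.62. Against KO2 it was 0.69 (0.09 to 1.29; adjusted p = 0.168). Fitted on the 6 E19.5 libraries alone, where the spread of adults does not enter, both differences passed the threshold of 0.05, with adjusted p = 0.0304 against wild type and 0.0245 against KO2. That fit called 8.44% of all tested genes in KO7 against wild type and 10.7% in KO7 against KO2.

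Of the 5 tested genes of the 3 loci, 0 passed the limma test in KO7 against wild type, and 2 had an unadjusted p under 0.05, Grb10 and Slc22a3; over all tested genes 4.45% were called and 21.1% had an unadjusted p under 0.05. In the other E19.5 contrast of KO7, against KO2, 0 of 5 passed and 1 (Grb10) had an unadjusted p under 0.05, beside 5.63% and 22.3% of all genes. In KO2 against wild type 0 of 5 passed and 0 had an unadjusted p under 0.05, beside 1.28% and 16.1% of all genes. The KO7 and KO2 contrasts share the wild-type libraries. Non-overlapping values were common with 2 libraries a group: the groups did not overlap for 60.3% of tested genes between KO7 and wild type, 58.1% between KO7 and KO2 and 57.2% between KO2 and wild type.

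Markers of other cell types moved in the same KO7 libraries as Grb10. Of 10 meningeal and fibroblast markers 7 rose in KO7 against wild type, Lum, Dcn, Col1a1, Col1a2, Col3a1, Fmod and Islr, and the summed level of the list was 202 to 234 FPKM in KO7, 75.7 to 108 in wild type and 81.8 to 83.4 in KO2. Endothelial and pericyte markers rose in 4 of 10 (196 to 225 FPKM against 108 to 119), and markers of dividing cells in 6 of 8 (46.4 to 53.8 FPKM against 26.9 to 28.2). Red cell markers rose in 2 of 5 tested (2478 to 2641 FPKM against 95.01 to 519.5) and microglia markers in 2 of 8. Of 8 astrocyte markers 1 rose, Gja1, and Aldoc and Aldh1l1 had higher means without passing. Astrocyte means were below wild type for Gfap (7.06 against 14.4 FPKM), Slc1a2 (17.1 against 25.2), Aqp4, S100b and Slc1a3, though none of these passed. None of the neuron (8), oligodendrocyte (8), choroid plexus (8) or monoaminergic neuron (7) markers passed in this contrast. No marker of these lists was at 0 in all libraries of an E19.5 group. Their part in the Grb10 difference was not tested. In bulk tissue, fewer cells of a type and less RNA per cell cannot be told apart.

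At the Igf2r locus neither the receptor nor its antisense RNA differed between KO7 and wild type beyond the spread of the libraries. Igf2r was at 8.74 and 11.9 FPKM in KO7, at 7.19 and 9.11 in wild type and at 10.2 and 7.93 in KO2, with all 3 groups overlapping. The KO7 difference from wild type was 0.30 on the log2 scale (95% interval -0.14 to 0.75, adjusted p = 0.421), an interval that still allows a modest rise. Igf2, the ligand that Igf2r clears, was at 108 and 93.6 FPKM in the KO7 libraries, 37.6 and 65.5 in wild type and 35.1 and 38.4 in KO2. Meningeal and fibroblast markers rose in the same KO7 libraries. KO7 is also known to have only paternal genomes, and its deletions do not include H19-DMR. The part of the markers, of Igf2r or of parental origin in the Igf2 values was not tested.

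Airn was at 2.63 and 2.02 FPKM in KO7, at 1.80 and 2.27 in wild type, and at 4.56 and 2.34 in KO2. The KO7 and wild-type libraries overlapped. Both KO2 libraries lay above wild type, replicate 2 only just and replicate 1 well above. In KO7 the difference was 0.13 (-0.77 to 1.02, adjusted p = 0.890), and in KO2 it was 0.51 (-0.38 to 1.40, adjusted p = 0.590). The KO2 value rested on replicate 1, and without it the difference was 0.14. Airn lies within and against Igf2r, and whether reads were counted by strand is not given in the sources used here, so reads of the 2 RNAs cannot be told apart. Airn is made by the paternal copy, and KO2 and KO3 are known to have only maternal genomes. Their values under the Airn entry, at both ages and in the ratios below, may therefore not be Airn RNA, which was not tested.

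The level of Airn relative to Igf2r, compared per transcript length within each library, was 0.250 in both E19.5 wild-type libraries. It was 0.300 and 0.169 in KO7, on either side of wild type, and 0.448 and 0.295 in KO2. In adults this ratio was more scattered, at 0.382 and 0.280 in set 1, 0.558 and 0.828 in KO2, 1.01 and 0.783 in set 2 and 0.514 and 3.14 in KO3. The set 1 values lie within the E19.5 range, and the other adult libraries lie above it.

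**Figure D2:**
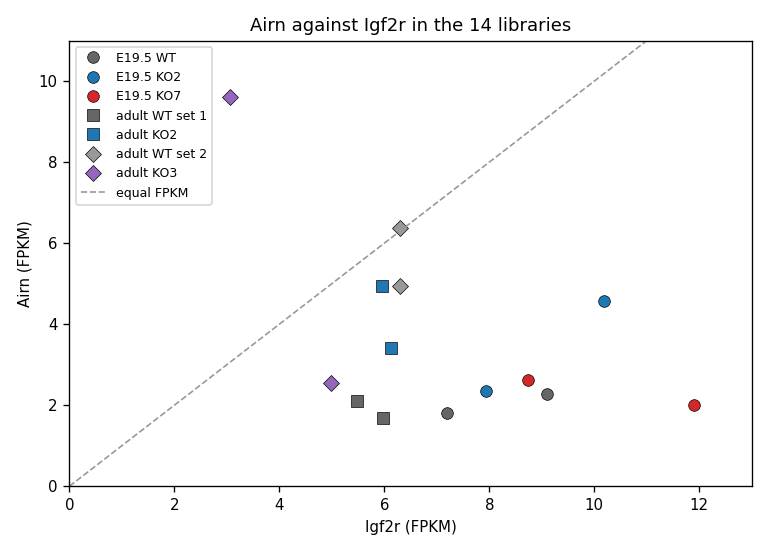
Airn level against Igf2r level in FPKM, 1 point per library, coloured by group. The E19.5 libraries lie to the right, with Igf2r between 7.19 and 11.9 FPKM, and the adult libraries to the left with Airn spread from 1.68 to 9.62 FPKM.

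Slc22a3 was at 1.08 and 0.855 FPKM in KO7, at 1.66 and 1.502 in wild type and at 1.31 and 1.24 in KO2. The 3 groups did not overlap, with KO2 in between. The KO7 difference from wild type was -0.39 on the log2 scale (95% interval -0.70 to -0.09; limma adjusted p = 0.132). Over its alternatives the adjusted p lay between 0.0860 and 0.690. Slc22a3 lies just above the level where genes enter the test, where the added 1 FPKM shrinks a difference on the log2 scale. Slc22a2, an organic cation transporter beside it, did not exceed 0.817 FPKM and was not tested.

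Gnas, the most abundant of the 6, varied little in proportion. It was at 1145 and 941 FPKM in KO7, at 844 and 904 in wild type and at 1045 and 1181 in KO2. Both knockouts lay above wild type and overlapped each other. The differences from wild type were 0.25 in KO7 (95% interval -0.23 to 0.72, adjusted p = 0.542) and 0.35 in KO2 (-0.13 to 0.82, adjusted p = 0.465). With quantile scaling of the libraries the KO7 difference turned to -0.16 (adjusted p = 0.771), so no direction is given for it. The table has 1 entry for Gnas, which joins the maternal, paternal and biallelic transcripts of the locus, so a shift from one to another would not show in it.

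Nespas was at 0.274 and 0.360 FPKM in KO7, at 0.706 and 0.681 in wild type and at 0.394 and 0.669 in KO2. The KO7 libraries were the lowest of E19.5, and the 3 groups did not overlap. With the filter on low values removed, the KO7 difference from wild type was -0.36 on the log2 scale (95% interval -0.56 to -0.17, adjusted p = 0.0540). Relative to Gnas, Nespas was at 0.0239% and 0.0382% in KO7, 0.0377% and 0.0567% in KO2, and 0.0837% and 0.0753% in wild type. In this ratio KO7 and KO2 overlapped, and both lay below wild type. Nespas overlaps the Gnas locus on the other strand, so the limit on strand given for Airn holds here too. The limit given for Airn in KO2 and KO3 holds as well, since Nespas is a paternal RNA.

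**Figure D3:**
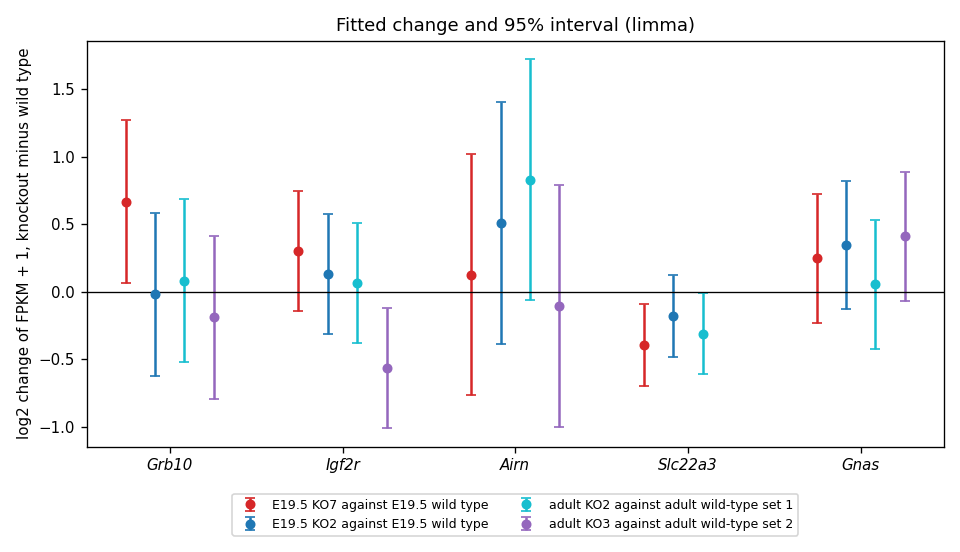
Differences on the log2(FPKM + 1) scale of the tested genes between each knockout and its wild type, with 95% intervals from limma (n = 2 libraries a group). The comparisons are KO7 and KO2 at E19.5, adult KO2 with set 1 and adult KO3 with set 2, the last without Slc22a3. The Grb10 interval of KO7 against wild type (0.07 to 1.27) lies above 0, although its adjusted p does not pass the threshold.

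The genes beside the loci were read from lists of neighbours. Of 7 neighbours of Grb10, 5 were tested and 0 passed in KO7 against wild type (limma; nearest Ikzf1, a lymphoid transcription factor, adjusted p = 0.250), with a median difference of 0.07. Of 13 neighbours of the Igf2r locus, 10 were tested: Acat2 rose, Park2 fell, and the median was 0.01. Of 11 neighbours of Gnas, 9 were tested and Ctsz rose, with a median of 0.23. The median over all tested genes was 0.00497.

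Acat2, an acetyl-CoA acetyltransferase of lipid metabolism, was at 64.7 and 58.7 FPKM in KO7, 44.7 and 40.5 in wild type and 26.8 in both KO2 libraries. The 3 groups did not overlap. KO7 was above wild type by 0.52 (adjusted p = 0.0434) and above KO2 by 1.17 (adjusted p = 0.000780), and KO2 was below wild type by 0.65 (fitted difference -0.65, adjusted p = 0.0354). The difference between KO7 and KO2 passed under all 17 of its alternatives, whereas that between KO2 and wild type passed under 9 of 17. Without any 1 of the 4 libraries the latter lost its call at a similar size (-0.72 to -0.58), in fits that called 6 to 70 genes in all in place of 183.

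Park2, the ubiquitin ligase parkin, was at 1.77 and 1.76 FPKM in KO7 and at 2.99 and 3.36 in wild type, a difference of -0.59 (adjusted p = 0.0426). Ctsz, a lysosomal protease, was at 51.7 and 37.6 FPKM in KO7 and at 20.8 and 23.6 in wild type, a difference of 0.96 (adjusted p = 0.0105). Neither gene's groups overlapped. The microglia marker sum was 76.1 to 91.3 FPKM in the KO7 libraries, 50.6 to 56.8 in wild type and 82.1 to 87.3 in KO2. The markers did not move as one. C1qb and C1qc passed in KO7 against wild type, and C1qa, Csf1r and Tmem119 had higher means. Lower means than in wild type were found for P2ry12 (2.27 against 3.51 FPKM), Aif1 (2.11 against 2.50) and Cx3cr1 (4.44 against 4.63). The part of these cells in the Ctsz difference was not tested.

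Against KO2, KO7 was also higher in Edn3 (0.92, adjusted p = 0.0370), a vasoactive peptide gene beside Gnas, and in Fignl1 (0.61, adjusted p = 0.0192), a DNA repair ATPase gene beside Grb10. Park2 was lower (-0.70, adjusted p = 0.0180). Edn3 stood at 2.03 and 1.64 FPKM in KO7 and at 0.570 and 0.423 in KO2, and Fignl1 at 1.83 and 1.98 against 0.721 and 1.10. In wild type Fignl1 averaged 1.55 FPKM. From wild type KO7 differed by 0.19 (limma adjusted p = 0.419) and KO2 by -0.42 (adjusted p = 0.134). Neither Edn3 nor Fignl1 passed in KO7 against wild type. Without any 1 of the 4 libraries of this contrast, 1 or 2 of its 5 named list genes (with Acat2 and Gigyf1) passed, in fits that called 191 to 265 genes in all in place of 806. Their differences were then 0.82 to 1.02 for Edn3, 0.47 to 0.75 for Fignl1, -0.74 to -0.66 for Park2, 1.10 to 1.24 for Acat2 and -0.89 to -0.52 for Gigyf1. In the same contrast markers of several cell types moved. Higher in KO7 were 8 of 10 meningeal and fibroblast, 4 of 10 endothelial and pericyte and 6 of 8 dividing-cell markers. Lower were 4 of 8 astrocyte markers (Gfap by -2.13), 4 of 8 oligodendrocyte markers (Mbp by -2.41) and 1 of 8 neuron markers (Snap25 by -0.88). Their part in these differences and in that of Grb10 against KO2 was not tested.

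**Figure D4:**
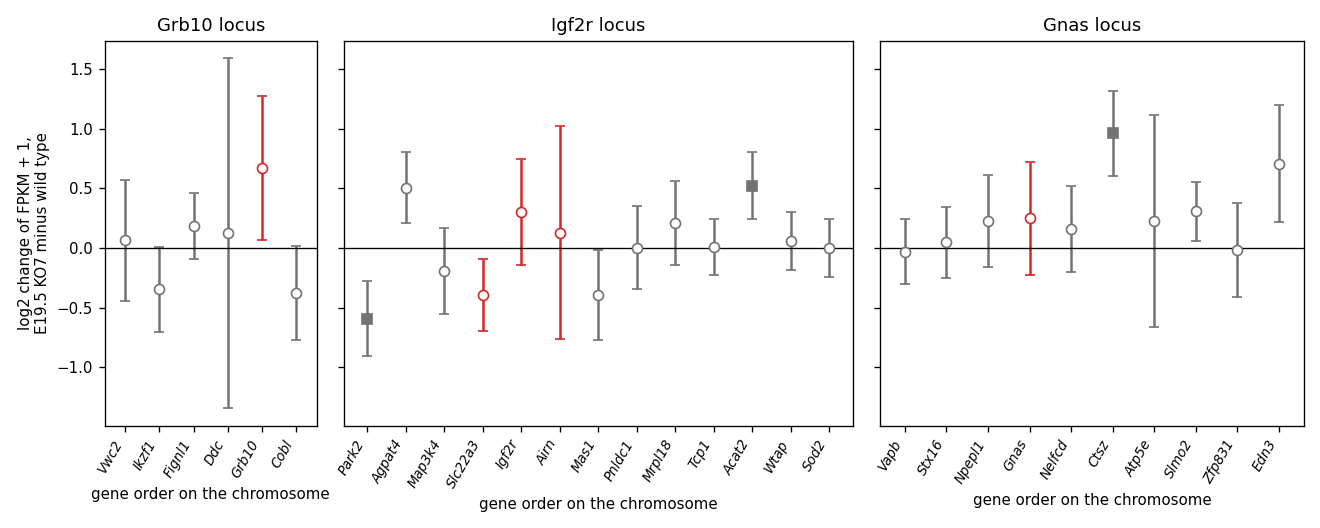
Differences between KO7 and wild type at E19.5, on the log2(FPKM + 1) scale, for tested genes of the 3 loci in chromosomal order, with the 5 tested imprinted genes in red and genes past the threshold as filled squares. Acat2 (0.52), Ctsz (0.96) and Park2 (-0.59) are the neighbours past the threshold.

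The pathways in which the proteins act were read from lists. Of 21 genes of insulin and IGF receptor signalling, in which GRB10 is an inhibitor, 0 passed in KO7 against wild type and the median difference was -0.08. The nearest to the threshold was Pik3r1, the regulatory subunit of PI 3-kinase (adjusted p = 0.0724). The receptors Insr (9.10 ± 1.76 FPKM in KO7, 11.5 ± 0.657 in wild type; SD, n = 2) and Igf1r (14.6 ± 0.535 against 17.5 ± 0.0550) had adjusted p of 0.260 and 0.271. Against KO2, Gigyf1, a GRB10-binding protein, was lower in KO7, at 12.2 and 16.1 FPKM against 22.2 and 24.8 (difference -0.70, adjusted p = 0.0314).

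Of 17 genes of mannose 6-phosphate sorting, the enzyme-carrying role of IGF2R, only Hexa rose in KO7 against wild type, and the median was 0.23. Hexa, a lysosomal hexosaminidase subunit, was at 26.1 and 23.5 FPKM against 16.2 and 14.5, with no overlap (0.66, adjusted p = 0.0119). M6pr, the other mannose 6-phosphate receptor, was at 23.2 ± 0.253 FPKM in KO7 and at 18.8 ± 0.513 in wild type (adjusted p = 0.138). The microglia marker values given beside Ctsz apply to Hexa as well. The 4 list genes named for this contrast (Acat2, Park2, Ctsz and Hexa) kept their direction when 1 library was left out, at 0.45 to 0.59 for Acat2, -0.66 to -0.53 for Park2, 0.74 to 1.19 for Ctsz and 0.58 to 0.74 for Hexa. Such a fit leaves 1 library in an arm, which is assumed to vary like the other groups, and calls 49 to 289 genes in all in place of 637. Of the 4 genes 0 passed without KO7 replicate 1 or without wild-type replicate 1, 2 without KO7 replicate 2 and 1 without wild-type replicate 2.

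Of 12 tested genes of organic cation and monoamine handling, around SLC22A3, 0 passed in KO7 against wild type. Of 23 genes of Gs and cAMP signalling, around GNAS, 0 passed and the median was -0.15. The nearest was Adcy1, a calcium-stimulated adenylyl cyclase of neurons, at 29.8 and 37.1 FPKM in KO7 and at 68.9 and 62.7 in wild type (adjusted p = 0.0518). In KO2 against wild type 0 genes passed in each of the 4 pathway lists. The smallest adjusted p there was 0.0645, for Eif4ebp1, a translation repressor downstream of insulin signalling.

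Per the labels the adult genotypes carry no deletion at these loci, and 0 of 5 tested genes passed in KO2 and 0 of 4 in KO3, where Slc22a3 holds no value. Both are known to have only maternal genomes, so these imprinted loci are not as in wild type. In adult KO2 against set 1, where 0.154% of all genes were called, 1 of 5 (Slc22a3) had an unadjusted p under 0.05, as had 7.34% of all genes; the groups did not overlap for 46.3%. Grb10 was at 9.69 and 18.0 FPKM in KO2 and at 9.81 and 15.7 in set 1, so the 2 libraries of each group differed more than the groups did. Igf2r (6.12 and 5.96 FPKM against 5.48 and 5.98) and Gnas (844 and 997 against 866 and 900.4) overlapped as well.

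Airn was at 3.41 and 4.94 FPKM in adult KO2 and at 2.09 and 1.68 in set 1, with no overlap. The difference was 0.83 on the log2 scale (95% interval -0.06 to 1.72, adjusted p = 0.716). The wild-type libraries of set 2 were at 6.36 and 4.94 FPKM, so the 2 wild-type sets differed by -1.20 (set 1 minus set 2; -2.09 to -0.31, adjusted p = 0.0575) and the KO2 libraries lay between or level with them. Slc22a3 was at 0.614 and 1.13 FPKM in adult KO2 and at 1.31 and 1.28 in set 1 (difference -0.31, -0.61 to -0.01; adjusted p = 0.672). Nespas was at 0.0595 and 0.122 FPKM in adult KO2 and at 0.0929 and 0.267 in set 1.

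The comparison of adult KO3 with set 2 called 22.1% of all genes and left 39.4% with an unadjusted p under 0.05, among the genes of the loci Igf2r alone; the groups did not overlap for 55.3% of all genes. Igf2r was at 4.98 and 3.06 FPKM in KO3 and at 6.30 in both set 2 libraries, with no overlap. The difference was -0.57 (95% interval -1.01 to -0.12; adjusted p = 0.0638). Without KO3 replicate 1 it was -0.85, so the size of the difference rested on replicate 2. That library also had the highest Airn of the series, 9.62 FPKM against 2.56 in replicate 1.

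Gnas was at 1072 and 1259 FPKM in KO3 and at 996 and 768 in set 2, without overlap (0.41, -0.07 to 0.89, adjusted p = 0.181). Quantile scaling turned this to -0.64 (adjusted p = 0.105). Grb10, at 11.9 and 9.24 FPKM in KO3 and 14.02 and 10.4 in set 2, overlapped. Slc22a3 and Nespas are listed at 0 in all 4 libraries.

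Several pathway genes passed in adult KO3, in shares near the 22.1% called over all genes for 3 of the 4 lists. Of the insulin and IGF list 5 of 21 fell, among them Rptor (-0.84), Akt2 (-0.60) and Mtor (-0.75), components of the kinase cascade below the receptor. Of the Gs and cAMP list 5 of 23 fell, among them the adenylyl cyclases Adcy9 (-1.16), Adcy1 (-0.94) and Adcy5 (-0.77) and the phosphodiesterase Pde10a (-0.97). Of the mannose 6-phosphate list 3 of 17 rose, among them Ctsl (0.54) and Gnptg (0.53), and 1 fell, Gnptab (-0.63). The cation and monoamine list had 0 of the 11 tested genes that hold a value in these libraries.

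Beside the loci, Mrpl18 (0.95) and Acat2 (0.60) of the Igf2r neighbours rose in KO3, as did Atp5e (1.29) and Slmo2 (0.50) of the Gnas neighbours, while Zfp831 (-0.61) fell and 0 of the 3 Grb10 neighbours that hold a value there passed. Leaving out 1 library at a time, which left 8 to 6780 genes called in all in place of 3164, moved these calls. Of the 17 list genes that the naming rule picks for KO3, 16 passed without KO3 replicate 1, 1 without KO3 replicate 2, 0 without set 2 replicate 1, 2 without set 2 replicate 2 and 0 without the 3 libraries that stand apart. In the same contrast 2 of the 3 red cell markers that hold a value rose, with the summed level of that list at 965 to 1008 FPKM in KO3 and 60.8 to 117 in set 2. Of 8 neuron markers 3 rose and 1 fell, 3 of 8 microglia markers and 1 of 8 astrocyte markers (S100b) rose, and 2 of 10 endothelial and pericyte markers fell. The part of these cells in the adult KO3 values was not tested.

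Between E19.5 and adult wild type (set 1), 0 of the 5 tested genes passed, in a comparison that called 56% of all genes; 0 had an unadjusted p under 0.05, against 61% of all genes. Grb10 differed by -0.46 (adjusted p = 0.171). Igf2r was at 5.48 and 5.98 FPKM in adults against 7.19 and 9.11 at E19.5, with a difference of -0.44 (95% interval -0.88 to 0.01, adjusted p = 0.0871). The median over all genes was -0.15 in this comparison. Restricted to the 10 libraries handled alike, Igf2r passed with adjusted p = 0.0442. All 6 E19.5 libraries had more Igf2r than any adult library; the wild-type groups of the 2 ages did not overlap for 84.1% of all genes. Nespas, in the fit with no filter, was lower in adults by 0.53 (difference -0.53, adjusted p = 0.00104).

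Between the 2 adult wild-type sets, where 20.9% of all genes were called, Slc22a3 was the 1 of 5 that passed (adjusted p = 0.000302) and Airn the other with an unadjusted p under 0.05, which 36.4% of all genes had; the sets did not overlap for 66.6%. It is listed at 0 in both set 2 libraries, which were handled differently, so no fold is given. The KO2 effect in adults minus that at E19.5 passed for 0 of 5 genes, with 0.0628% of all genes called, and 0 had an unadjusted p under 0.05, against 14.8% of all genes; for Gnas it was -0.29 (adjusted p = 0.695).

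Ordered by group mean, Grb10 was highest in E19.5 KO7 (28.5 ± 1.97 FPKM), apart from the next group, E19.5 wild type (17.6 ± 2.68), and all further neighbours in the order overlapped down to adult KO3 (10.6 ± 1.85). Igf2r ran from E19.5 KO7 (10.3 ± 2.23) to adult KO3 (4.02 ± 1.35), with the 3 E19.5 groups overlapping and a gap below them. For Airn, from adult KO3 (6.09 ± 4.99) to set 1 (1.89 ± 0.296), and for Gnas, from adult KO3 (1166 ± 132) to E19.5 wild type (874 ± 42.4), every pair of neighbours overlapped.

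Likeness of pattern was read over the 10 libraries handled alike, as Pearson's r of log2(FPKM + 1) with every tested gene. Most like Grb10 were Smo (0.973), the Hedgehog signal transducer, Flii (0.965) and Smtn (0.954). Most like Igf2r were Zfp287 (0.967), Akna (0.966) and Gpr98 (0.966), and most like Gnas were Sdf2 (0.950), Atoh8 (0.929) and Nfkbil1 (0.928). Airn was nearest to AA467197 (0.924), Opn3 (0.877) and Plscr4 (0.872), and Slc22a3 to Pcdhga5 (0.933), Gnal (0.911), a G protein subunit related to GNAS, and Gprin3 (0.889). Such values are the highest among 14322 genes and the points share stage and library, so they describe the pattern only. Among the 5 genes themselves, Grb10 and Igf2r were the most alike (r = 0.79), and the other pairs lay between -0.30 and 0.50.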

How the data were processed

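Expression in mouse brain was measured by poly(A) RNA sequencing in 14 libraries, grouped by the sample titles. FPKM values were taken as the authors deposited them, in 1 table. Per the submitters' processing notes the build was mm9 and the tools included Cufflinks 2.2.1, TopHat2 2.1.1 and CASAVA, with no role or order. What annotation, strand setting or filter was used is not given in the sources used here. The FPKM word of the table's header is missing for the 4 libraries of adult KO3 and set 2, which were taken as FPKM too.

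The 2 entries that name no gene were dropped. The 14322 genes that reached 1 FPKM in 2 or more libraries were fitted as log2(FPKM + 1) by group with limma 3.58.1 (trend, 2-sided, 7 residual degrees of freedom) in R 4.3.3, and p-values were adjusted by Benjamini-Hochberg over all of them at a threshold of 0.05. The pseudocount of 1 understates changes of low genes. The fit was tested on simulated data. The members and gene lists were chosen with earlier results of these data known. The text names by rule all members, the neighbours and list genes past the threshold (pathways at most 4 per list and comparison, smallest p first, or the nearest to it), and 3 like genes per member. Further genes were named after their values were seen: Igf2, Insr, Igf1r, M6pr and the markers. Alternatives changed the pseudocount, filter, scaling, variance trend, grouping, replicate block and libraries. Promoters came from RefSeq (GRCm38.p6). Symbols matched for 5 of 6 members. Some list genes that the rule would name are not reported here.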

Additional observations from a re-analysis of the deposited data

How the results depend on the processing

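For the genes of the 3 loci, 17 differences were recomputed under 266 alternatives in all: 251 kept direction and side of the threshold, 8 passed only under the alternative and 7 turned direction. The number of these genes called was 1 (Grb10) for KO7 against wild type and 1 (Grb10) for KO7 against KO2 with E19.5 libraries only. For adult KO3 it was 1 (Igf2r, -0.58, adjusted p = 0.0494) with median-of-ratios scaling. That fit called 2024 genes higher and 1791 lower in all. Leaving out 1 library gave -0.85 to -0.29 for Igf2r in adult KO3. For adult against E19.5 wild type it was 1 with no filter (Nespas), 1 without the 3 libraries that stand apart and 1 with the 10 libraries handled alike (Igf2r in both; the last setting was chosen after seeing the data). Between the wild-type sets it was 2 with a pseudocount of 0.1 (Airn and Slc22a3) and 2 with quantile scaling (Slc22a3 and Gnas). The quantile fit called 1470 genes higher and 1631 lower in all. With a filter at 5 FPKM, which removes Slc22a3, the number was 0. Airn differed between the sets by -1.53 (adjusted p = 0.0495) with the pseudocount of 0.1 and by -1.36 without the 3 libraries. Directions turned under quantile scaling for Gnas in KO7 (-0.16) and adult KO3 (-0.64) and for Grb10 in E19.5 KO2 (0.016), and with the adult wild types as 1 group for Slc22a3 in adult KO2 (0.29). Leaving out 1 library gave -0.17 to 0.13 for Grb10 in E19.5 KO2 and -0.0049 to 0.26 for Airn in KO7. Where no value is named as the source, the cause was not tested. For Grb10 in KO7 against wild type the difference stayed between 0.48 and 0.82 (adjusted p 0.0304 to 0.589), and against KO2 between 0.49 and 0.81 (0.0245 to 0.492).

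Numbers of all genes called moved widely over the alternatives: 637 (49 to 1696) for KO7 against wild type, 183 (6 to 591) for E19.5 KO2, 806 (191 to 1821) for KO7 against KO2, 22 (3 to 65) for adult KO2, 3164 (8 to 6780) for adult KO3, 8020 (6229 to 9154) for adult against E19.5, 2990 (1313 to 4458) between the sets and 9 (2 to 288) for the change of the KO2 effect. The share of calls that were higher went from 62.9% to 47.1% for adult KO3 and from 67.2% to 47.4% between the sets with quantile scaling. Replicate numbers are shared by the groups, but the labels do not say that they pair the libraries, and same-numbered libraries correlated by -0.29 to 0.23 in their deviations. With the replicate block the number of member genes called was the same in every comparison (1 between the sets, 0 elsewhere) and the genes called in KO7 against wild type were 535. With the E19.5 KO2 numbers crossed, 133 genes were called against wild type and 689 in KO7 against KO2. Depth is unknown, which limits what can be said of Nespas and Slc22a3.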
